A study of Mus musculus with 24 samples.

Results

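The change from long-term haematopoietic stem cells (LTHSC) to megakaryocyte progenitors (MkP) was measured in mice of the Scl.Cre Exon12 (E12) genotype; the label names no gene, and Exon12 is read here as exon 12 of the kinase gene Jak2, which the label of another genotype in the series names. The members are the 6 libraries of this genotype, 3 of LTHSC (replicates 2, 4 and 11) and 3 of MkP (replicates 2, 4 and 5), among 24 libraries of the series. All 24 came from bone marrow of C57BL/6N mice that received tamoxifen on 5 days and whose cells were sorted by flow cytometry 12 weeks later. Scl.Cre places the recombinase under regulatory sequence of the stem and progenitor cell gene Scl (also called Tal1). Both populations compared carry the same genotype label, so the comparison is between populations within 1 labelled genotype. Recombination of the allele was not measured in either. For comparison, the series holds LTHSC and MkP of a Scl.Cre mouse Jak2 knock-in genotype (KI) and of a Vav1.Cre V617F genotype (VF), 3 libraries each; the VF line has another Cre driver, and the labels do not say which genotype stands for unmutated Jak2. The labels give neither the age nor the sex of the animals, nor whether replicates came from separate or pooled animals. The p-values therefore measure only the spread between these libraries, which may be technical.

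Long-term stem cells sit at the top of blood formation, divide rarely, and are held in that state by factors such as Hlf and Mecom that keep self-renewal genes active. On the way to the megakaryocyte, the large marrow cell that sheds platelets, GATA1 with its cofactor FOG1 (Zfpm1) and ETS factors switch on platelet receptors, granule proteins and a special cytoskeleton. Jak2 carries the signal of several cytokine receptors, the erythropoietin receptor among them, and activating exon 12 mutations of it are known from patients with polycythaemia vera.

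The 6 libraries held 20751902 to 29415489 counts and 14239 to 15877 detected genes each. Levels below are CPM, counts scaled to library size with TMM factors over these 6 libraries, unless another scale is named. Jak2 (chromosome 19, 29251803 to 29313095 in GRCm38) stood at 62.5, 20.5 and 55.0 CPM in LTHSC 2, 4 and 11 and at 53.0, 64.8 and 62.5 CPM in MkP 2, 4 and 5. The groups overlapped and the difference was not called (log2 fold change 0.38, SE 0.41, edgeR quasi-likelihood adjusted p = 0.715; 0.05, adjusted p = 0.866 without LTHSC 4). A count per gene does not show which Jak2 allele was read.

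One library stood apart. On the first principal component of all 24 libraries, LTHSC 2 and 11 lay at -49.5 and -52.5 and the 3 MkP libraries at 23.5 to 30.5, while LTHSC 4 lay at 11.7. LTHSC 4 held 18052 CPM of the neutrophil granule enzyme Mpo, against 137 and 120 in LTHSC 2 and 11 and 783 to 2297 in MkP. Its levels of the granule proteases Elane and Ctsg were 4917 and 3003 CPM, against at most 245 and 213 in any other of the 6 libraries. Of the 32 listed neutrophil and monocyte genes 31 were tested, and their summed level was 32947 CPM in LTHSC 4, 2161 and 2475 in LTHSC 11 and 2, and 1686 to 4052 in MkP. The lymphoid precursor enzyme Dntt (396 CPM), the mast cell protease Cpa3 (194 CPM) and Cd48 (538 CPM), a surface protein low on long-term stem cells, were also highest in LTHSC 4. The stem cell factors Hlf and Mecom were lowest there among the LTHSC libraries, at 60.7 and 6.02 CPM. List counts and single-gene tests are therefore given, in most cases, with all 6 libraries and without LTHSC 4, which leaves 2 LTHSC libraries against 3 of MkP. The 93 named genes that were called with all 6 libraries all kept their sign and their call without LTHSC 4. The naming rule required this of the 10 largest changes each way, and 547 of all 548 called genes did the same.

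**Figure D1:**
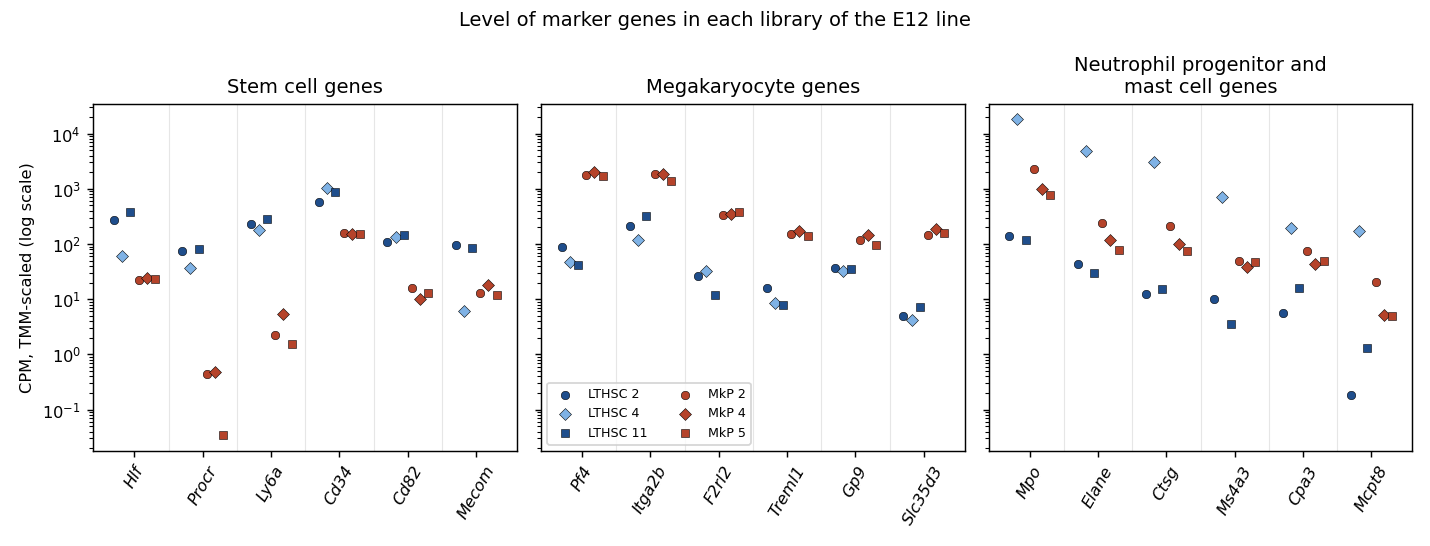
CPM (log scale) of stem cell, megakaryocyte and neutrophil or mast cell genes in each of the 6 libraries; each point is 1 library, LTHSC in blue with LTHSC 4 in pale blue, MkP in red. For each of the 6 megakaryocyte genes the 3 MkP libraries lie above the 3 LTHSC libraries, and Mpo reaches 18052 CPM in LTHSC 4.

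Several defining genes of the labelled cell types separated the populations, though not all did so clearly. Stem cell markers Procr and Ly6a were at 37.2 to 79.7 and 181 to 288 CPM in LTHSC and at 0.0344 to 0.472 and 1.51 to 5.33 CPM in MkP. The stem cell marker Fgd5 was at 32.2, 3.64 and 37.0 CPM in LTHSC 2, 4 and 11 and at 0.259 to 2.2 CPM in MkP. LTHSC 4 lay near MkP for Fgd5, which was called only without it (edgeR adjusted p = 0.00573, and 0.0635 with all 6 libraries). Of the megakaryocyte markers, Itga2b, Pf4 and Gp9 were high in all 3 MkP libraries, whereas the collagen receptor Gp6 was at 0.648, 0.33 and 0 CPM and at 0 in all LTHSC libraries. The late platelet tubulin Tubb1 stayed at 2.27 to 7.65 CPM in MkP and 0 to 8.26 CPM in LTHSC. The red cell marker Slc4a1 stayed at 11.8 CPM or less in every library. The lymphoid markers Cd79a and Il7r did not exceed 1.17 and 0.735 CPM in MkP.

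Xist differed along with the populations, whereas the Y-linked genes were not called. Xist, the RNA of the inactive X chromosome, was at 838, 1962 and 2029 CPM in MkP 2, 4 and 5 and at 8.78, 11.4 and 0.0329 CPM in LTHSC 2, 4 and 11. The Y-linked Ddx3y was at 97.1, 10 and 53.3 CPM in LTHSC and at 21.6, 0.0944 and 0 CPM in MkP. The groups overlapped for Ddx3y, with MkP 2 above LTHSC 4, and 0 of 4 tested Y-linked genes were called in either fit. MkP 2 held both Xist and Ddx3y, and whether it came from animals of both sexes was not tested. Replicates of the same number did not match in these genes, and population and sex-linked signal cannot be told apart. Of 460 tested X-linked genes 4 were higher and 7 lower in MkP (2.39%), against 4.14% called over the other chromosomes.

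A gene was called when its adjusted p over all genes tested was under 0.05. With all 6 libraries 548 of 13429 tested genes were called, a share of 4.08%; 125 were higher in MkP (0.931%) and 423 lower (3.15%). The 3 libraries of one population lay entirely above those of the other for each of the 548, which over all tested genes held for 12.1% in the MkP direction and 15.8% in the LTHSC direction. Without LTHSC 4, 2814 of 13867 genes were called (20.3%), 1262 higher (9.1%) and 1552 lower (11.2%). Of the 548 genes, 547 were called again with the same sign. The median log2 fold change over all tested genes was -0.11 with all 6 libraries and -0.0082 without LTHSC 4. Calls were also lost when another library was left out: 36 remained in number without MkP 4, 45 without MkP 5, 119 without MkP 2, 211 without LTHSC 11 and 289 without LTHSC 2. DESeq2 called 1533 genes in the same 6 libraries. Of 93 named genes that were called, 18 kept their sign and their call in all 13 alternatives. They were Pf4, F2rl2, Treml1, P2ry1, Slc35d3, Stx11, Pde5a, Kcnj5 and Mfsd2b among the higher genes, and Procr, Ly6a, Cd82, Emcn, Ifitm1, Il2rg, Ltb, Ldhb and Gimap7 among the lower.

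**Figure D2:**
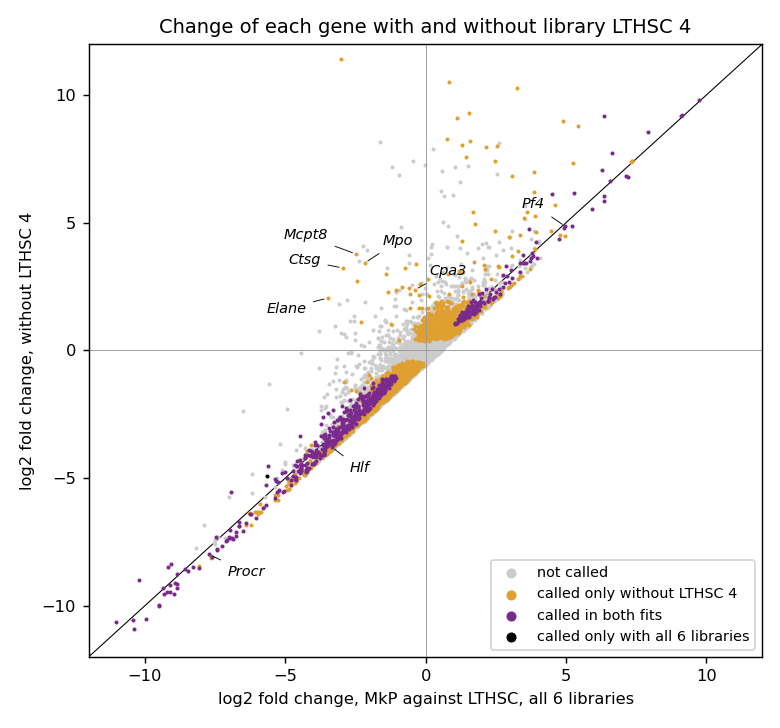
Log2 fold change of each gene, MkP against LTHSC, with all 6 libraries (x axis) and without LTHSC 4 (y axis); each point is 1 gene, coloured by the fits in which it was called. The calls of both fits lie near the diagonal, and Mpo, Elane, Ctsg, Cpa3 and Mcpt8 change sign.

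Many stem cell genes were lower in MkP. Of 28 listed stem cell transcription factors 8 were lower in MkP and 0 higher with all 6 libraries, against 3.15% lower over all genes, and 17 were lower and 0 higher without LTHSC 4, against 11.2%; the median log2 fold changes were -1.1 and -1.2. Hlf (chromosome 11, 90336535 to 90390917), a factor that marks and maintains long-term stem cells, was at 270, 60.7 and 377 CPM in LTHSC 2, 4 and 11 and at 21.9, 24.7 and 23 CPM in MkP 2, 4 and 5. All LTHSC values were above all MkP values, with LTHSC 4 nearest to MkP (log2 fold change -3.35, SE 0.61, adjusted p = 0.0278; -3.79, SE 0.18, adjusted p = 0.000275 without LTHSC 4). Nkx2-3, a homeobox factor, fell from 48.6, 23.8 and 33.4 CPM to 4.8, 3.45 and 2.55 CPM (log2 fold change -3.29, SE 0.43, adjusted p = 0.00853; -3.49, adjusted p = 0.00154 without LTHSC 4). The repressor Gfi1 and the homeobox genes Hoxa7 and Hoxa9, which support stem and progenitor growth, fell by 3.94, 2.02 and 1.82 on the log2 scale (adjusted p = 0.0163, 0.0217 and 0.0306). Mecom (Evi1), a guardian of stem cell quiescence, was at 95.8, 6.02 and 84.6 CPM in LTHSC and at 13, 17.7 and 11.7 CPM in MkP. LTHSC 4 lay below every MkP library, and Mecom was called only without it (log2 fold change -2.66, adjusted p = 0.000816; -2.14, adjusted p = 0.219 with all 6). Meis1, a factor shared by stem cells and megakaryocytes, was at 429 to 462 CPM in MkP and at 611, 141 and 510 CPM in LTHSC and was called in neither fit (adjusted p = 0.951 and 0.126).

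Listed surface and sorting genes of stem and progenitor cells were also lower in MkP where called with all 6 libraries. Of 27 tested, 11 were lower and 0 higher with all 6 libraries, against 3.15% lower over all genes, and 16 were lower and 2 higher without LTHSC 4, against 11.2% lower and 9.1% higher. The list is not restricted to long-term stem cell markers. Flt3 averaged 125 CPM in LTHSC and 5.72 CPM in MkP (log2 fold change -4.45, edgeR adjusted p = 0.00606, and -4.54, adjusted p = 0.00228 without LTHSC 4). Cd27 was also lower (-2.22, edgeR adjusted p = 0.0172). Cd48 was among the 2 higher without LTHSC 4 (3.00, edgeR adjusted p = 0.00459). Procr (EPCR; chromosome 2, 155751125 to 155755478), the protein C receptor that marks the most primitive stem cells, was at 74.8, 37.2 and 79.7 CPM in LTHSC and at 0.432, 0.472 and 0.0344 CPM in MkP. The groups were far apart (log2 fold change -7.71, SE 0.78, adjusted p = 0.00403; -7.99, adjusted p = 0.000526 without LTHSC 4). Ly6a (Sca-1; chromosome 15, 74994877 to 74998031), a membrane protein of the classical stem cell gate, was at 228, 181 and 288 CPM in LTHSC and at 2.25, 5.33 and 1.51 CPM in MkP (log2 fold change -6.26, SE 0.57, adjusted p = 0.00358; -6.42, adjusted p = 0.000536 without LTHSC 4). The labels do not list the markers of the sort gates, and the part of a gate on such proteins in these differences was not tested. Cd34 (chromosome 1, 194938821 to 194961292), an adhesion protein of progenitors, was at 572, 1039 and 861 CPM in LTHSC and at 161, 152 and 149 CPM in MkP (log2 fold change -2.42, SE 0.31, adjusted p = 0.00769; -2.21, adjusted p = 0.000732 without LTHSC 4). The tetraspanin Cd82, the interferon-induced membrane protein Ifitm1 and the sialomucin Emcn fell by 3.31, 3.22 and 3.48 on the log2 scale (adjusted p = 0.00324, 0.00324 and 0.00367). Slamf1 (CD150), which stem cells and MkP both carry, was at 61.0, 18.6 and 55.5 CPM in LTHSC and at 59.9, 51.1 and 55.9 CPM in MkP and was not called (log2 fold change 0.30, SE 0.43, adjusted p = 0.795; -0.05, adjusted p = 0.863 without LTHSC 4). The stem cell factor receptor Kit was at 955, 380 and 834 CPM in LTHSC and at 467, 552 and 382 CPM in MkP, called only without LTHSC 4 (log2 fold change -0.92, adjusted p = 0.011).

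Regulators active in both cell types are read against 0.931% higher and 3.15% lower over all genes, and 9.1% and 11.2% without LTHSC 4. Of 10 factors shared by stem cells and megakaryocytes, 0 were higher and 1 lower with all 6 libraries, and 3 were higher and 2 lower without LTHSC 4. The lower one was Lyl1, a partner of Lmo2, which fell from 240, 386 and 214 CPM in LTHSC 2, 4 and 11 to 106, 71.3 and 87.9 CPM in MkP (log2 fold change -1.66, SE 0.32, adjusted p = 0.033; -1.34, adjusted p = 0.0044 without LTHSC 4). Gata2, the GATA factor of stem and early progenitor cells, was at 279, 77.8 and 181 CPM in LTHSC and at 565, 498 and 391 CPM in MkP. The groups did not overlap, and the difference was called only without LTHSC 4 (log2 fold change 1.10, SE 0.23, adjusted p = 0.018; 1.44, adjusted p = 0.137 with all 6). The ETS factor Fli1 behaved likewise, at 254, 52.9 and 202 CPM in LTHSC and 391, 450 and 458 CPM in MkP (adjusted p = 0.216 with all 6 and 0.00645 without LTHSC 4). Runx1, which both lineages need, was called only without LTHSC 4 (log2 fold change 0.59, adjusted p = 0.0393).

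Many megakaryocyte genes were higher in MkP. The 250 bases before the RefSeq start of 4 genes are shown because platelet genes are classical targets of GATA1 and of ETS factors. The 4 were picked from genes called higher in MkP, so no motif share can be read from them. The sequences are those of RefSeq on GRCm38.p6, read 5′ to 3′ on the strand of the gene, at chr5:90772185-90772434 (+) for Pf4, chr11:102469884-102470133 (-) for Itga2b, chr13:95696670-95696919 (+) for F2rl2 and chr6:87777820-87778069 (+) for Gp9, whose window lies inside the annotated span of the gene. Capitals mark matches to a GATA motif, searched as AGATAA on either strand and so printed as TTATCT where the match is on the other strand. They also mark matches to an ETS motif, searched as GGAAGT on either strand, which is printed as ACTTCC in that case, and no printed matches overlap.
Pf4: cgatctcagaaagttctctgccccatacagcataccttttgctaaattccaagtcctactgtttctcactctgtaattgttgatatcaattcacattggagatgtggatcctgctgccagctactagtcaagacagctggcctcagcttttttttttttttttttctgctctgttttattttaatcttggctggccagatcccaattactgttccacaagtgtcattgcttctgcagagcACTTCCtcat
Itga2b: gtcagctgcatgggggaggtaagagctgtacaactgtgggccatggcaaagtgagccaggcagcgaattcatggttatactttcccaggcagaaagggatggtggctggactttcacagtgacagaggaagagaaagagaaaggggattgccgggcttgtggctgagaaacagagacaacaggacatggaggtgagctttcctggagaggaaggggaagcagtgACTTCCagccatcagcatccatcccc
F2rl2: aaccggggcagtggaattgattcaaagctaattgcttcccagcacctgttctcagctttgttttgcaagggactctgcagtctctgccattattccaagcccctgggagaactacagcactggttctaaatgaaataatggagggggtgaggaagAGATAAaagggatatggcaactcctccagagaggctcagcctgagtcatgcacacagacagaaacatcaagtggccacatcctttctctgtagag
Gp9: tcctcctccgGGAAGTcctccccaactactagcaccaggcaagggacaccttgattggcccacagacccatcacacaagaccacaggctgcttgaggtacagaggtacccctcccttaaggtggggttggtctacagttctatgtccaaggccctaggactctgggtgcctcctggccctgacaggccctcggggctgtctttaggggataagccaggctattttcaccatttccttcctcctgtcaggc
The ETS letters began 10 bases before the start in Pf4, 26 in Itga2b and 240 in Gp9, and the GATA letters 95 bases before it in F2rl2. Of 27025 genes in the promoter table, 11.4% held the GATA letters and 22.2% the ETS letters in such a window, on either strand. Promoter entries matched 27 of the 30 tested platelet receptor genes and 10589 of the 13429 tested genes. The latter is under 80%, so a check of the motif share over called or listed genes is void and no such share is given. A match is a description of the letters and not a measured binding site.

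Of 10 tested megakaryocyte transcription factors 2 were higher and 0 lower with all 6 libraries, against 0.931% and 3.15% over all genes. Without LTHSC 4, 5 were higher and 2 lower, against 9.1% and 11.2%. Zfpm1, the cofactor FOG1 of GATA factors, rose from 35.6, 16.6 and 20.1 CPM in LTHSC 2, 4 and 11 to 68.0, 83.1 and 95.0 CPM in MkP 2, 4 and 5 (log2 fold change 1.77, SE 0.36, adjusted p = 0.037; 1.58, adjusted p = 0.0109 without LTHSC 4). Mef2c, a factor of megakaryocytes and lymphoid cells, rose from 221, 155 and 167 CPM to 574, 594 and 587 CPM (log2 fold change 1.70, SE 0.27, adjusted p = 0.0159; 1.61, adjusted p = 0.000996 without LTHSC 4). The X-linked Gata1, master factor of the megakaryocyte and red cell branch, was at 80.6, 182 and 74.9 CPM in LTHSC and at 370, 326 and 355 CPM in MkP. All MkP values lay above all LTHSC values, yet the call was made only without LTHSC 4 (log2 fold change 2.19, SE 0.13, adjusted p = 0.000362; 1.64, SE 0.39, adjusted p = 0.059 with all 6). Nfe2, needed for platelet release, stood at 839, 922 and 775 CPM in LTHSC and at 633, 591 and 587 CPM in MkP (log2 fold change -0.49, SE 0.25, adjusted p = 0.359; -0.40, adjusted p = 0.0392 without LTHSC 4).

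Among 30 tested platelet receptors and integrins 9 were higher and 0 lower with all 6 libraries, a share of 9 in 30 against 0.931% over all genes, and 17 were higher and 4 lower without LTHSC 4, against 9.1% and 11.2%. The median log2 fold change was 1.4 in both fits. Itga2b (CD41; chromosome 11, 102453297 to 102469883), the alpha chain of the fibrinogen receptor, rose from 215, 118 and 316 CPM to 1862, 1846 and 1368 CPM (log2 fold change 2.97, SE 0.42, adjusted p = 0.011; 2.69, adjusted p = 0.000858 without LTHSC 4). Its partner Itgb3 was at 84.4, 9.11 and 70.7 CPM in LTHSC and at 216, 340 and 300 CPM in MkP and was called only without LTHSC 4 (log2 fold change 1.90, adjusted p = 0.00233). F2rl2 (PAR3; chromosome 13, 95696920 to 95702768), the thrombin-binding receptor of mouse platelets, rose from 25.9, 31.8 and 12.1 CPM to 340, 355 and 382 CPM. Its MkP values lay within a narrow range far above LTHSC (log2 fold change 3.95, SE 0.41, adjusted p = 0.00464; 4.26, adjusted p = 0.000644 without LTHSC 4). The granule receptor Treml1 rose from 16.2, 8.61 and 7.74 CPM to 152, 170 and 137 CPM (log2 fold change 3.82, SE 0.37, adjusted p = 0.00367; 3.70, adjusted p = 0.000979 without LTHSC 4). The ADP receptor P2ry1 and the podoplanin receptor Clec1b (CLEC-2) rose by 3.71 and 3.35 on the log2 scale (adjusted p = 0.00367 and 0.0151), and the tetraspanin Cd9 by 1.67 (adjusted p = 0.0152).

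The 4 subunits of the von Willebrand factor receptor differed in their calls. Gp9 rose from 36.6, 31.8 and 35.7 CPM to 119, 143 and 95.8 CPM (log2 fold change 1.78, SE 0.26, adjusted p = 0.0129; 1.74, adjusted p = 0.00255 without LTHSC 4). Gp1ba and Gp5 lay higher in all 3 MkP libraries, at 114 to 130 and 449 to 527 CPM against 10.2 to 44.9 and 7.04 to 93.8 CPM, and were called only without LTHSC 4 (adjusted p = 0.00275 and 0.0235). Gp1bb was at 31.2, 22.8 and 0.197 CPM in LTHSC and at 276, 309 and 302 CPM in MkP. Its LTHSC values spread over more than 100-fold, with LTHSC 11 lowest, and it was called in neither fit (log2 fold change 4.03, SE 1.23, adjusted p = 0.125; adjusted p = 0.0899 without LTHSC 4). The adhesion receptor Selp, which stem cells also carry, was at 130, 106 and 176 CPM in LTHSC and at 152, 211 and 172 CPM in MkP, overlapping (adjusted p = 0.579, and 0.436 without LTHSC 4).

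Cargo genes of the alpha granule are read against 0.931% higher and 3.15% lower over all genes, and 9.1% and 11.2% without LTHSC 4. Of 21 tested cargo genes 2 were higher and 1 lower with all 6 libraries, and of 22 tested without LTHSC 4, 8 were higher and 2 lower; the median log2 fold changes were 1.6 and 1.4. Pf4 (platelet factor 4; chromosome 5, 90772435 to 90773383), a chemokine that restrains megakaryocyte growth, rose from 87.3, 46.8 and 42.4 CPM in LTHSC 2, 4 and 11 to 1796, 2022 and 1736 CPM in MkP 2, 4 and 5 (log2 fold change 4.98, SE 0.40, adjusted p = 0.00292; 4.86, adjusted p = 0.000456 without LTHSC 4). Per kilobase of the deposited gene length it reached 2952 to 3439 CPM in MkP, above Itga2b at 398 to 542 and F2rl2 at 138 to 155 on the same scale. The protease inhibitor Serpine2 rose from 15.7, 49.0 and 8.1 CPM to 309, 355 and 280 CPM (log2 fold change 3.70, SE 0.65, adjusted p = 0.0241; 4.75, adjusted p = 0.00042 without LTHSC 4). Gas6, a ligand of TAM receptor kinases, fell from 18.4, 3.29 and 9.94 CPM to 0.778, 0.897 and 0.792 CPM (log2 fold change -3.67, SE 0.71, adjusted p = 0.0322; -4.08, adjusted p = 0.00233 without LTHSC 4). Vwf was at 73.6, 6.18 and 62.4 CPM in LTHSC and at 330, 427 and 361 CPM in MkP, called only without LTHSC 4 (log2 fold change 2.47, SE 0.17, adjusted p = 0.00042). The chemokine precursor Ppbp was low, at 20.6 to 28.4 CPM in MkP and 1.37 to 7.7 CPM in LTHSC (adjusted p = 0.0644 with all 6 and 0.0263 without LTHSC 4).

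Of 25 tested genes that build and release granules 4 were higher and 0 lower, against 0.931% and 3.15% over all genes. Without LTHSC 4, 4 were higher and 3 lower, against 9.1% and 11.2%. Slc35d3 (chromosome 10, 19847917 to 19856634), a carrier-like protein needed for platelet dense granules, rose from 4.93, 4.2 and 7.14 CPM to 146, 190 and 156 CPM (log2 fold change 4.91, SE 0.34, adjusted p = 0.00292; 4.78, adjusted p = 0.000291 without LTHSC 4). Plek (pleckstrin), a major kinase C substrate of platelets, rose from 137, 60.5 and 53.8 CPM to 1004, 1026 and 985 CPM (log2 fold change 3.58, SE 0.43, adjusted p = 0.00627; 3.42, adjusted p = 0.00224 without LTHSC 4). The MkP values of both genes lay together and apart from LTHSC. The secretion genes Stx11 and Rab27b rose by 2.90 and 2.65 on the log2 scale (adjusted p = 0.00367 and 0.0487). Among 28 tested cytoskeleton genes 2 were higher and 0 lower, and 8 of 29 were higher and 1 lower without LTHSC 4, against the same shares. Tuba8, an alpha tubulin, rose from 75.2, 134 and 54.2 CPM to 612, 687 and 611 CPM (log2 fold change 2.86, SE 0.39, adjusted p = 0.00998; 3.32, adjusted p = 0.000291 without LTHSC 4), and the actin-binding Cttn by 1.81 on the log2 scale (adjusted p = 0.0484; 1.49, adjusted p = 0.000996 without LTHSC 4).

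Of the signalling enzymes of platelets 5 of 32 were higher and 0 lower, against 0.931% and 3.15% over all genes. Without LTHSC 4, 15 were higher and 1 lower, against 9.1% and 11.2%. Pde5a, which breaks down cyclic GMP, rose from 5.23, 5.01 and 4.34 CPM to 42.1, 53.6 and 55.4 CPM (log2 fold change 3.37, SE 0.30, adjusted p = 0.00324; 3.41, adjusted p = 0.000536 without LTHSC 4). Pde3a, which breaks down cyclic AMP, had no count in any LTHSC library and 1.99, 3.63 and 2.79 CPM in MkP. Against 3 counts over the LTHSC group it was at least 71.8-fold higher in MkP (adjusted p = 0.0232). The small GTPase Rap1b, which activates platelet integrins, rose from 293, 113 and 143 CPM to 970, 1084 and 1351 CPM (log2 fold change 2.63, SE 0.42, adjusted p = 0.0172; 2.40, adjusted p = 0.00395 without LTHSC 4). The kinase Syk and the adaptor Fyb rose by 1.14 and 1.25 on the log2 scale (adjusted p = 0.0455 and 0.0306).

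**Figure D3:**
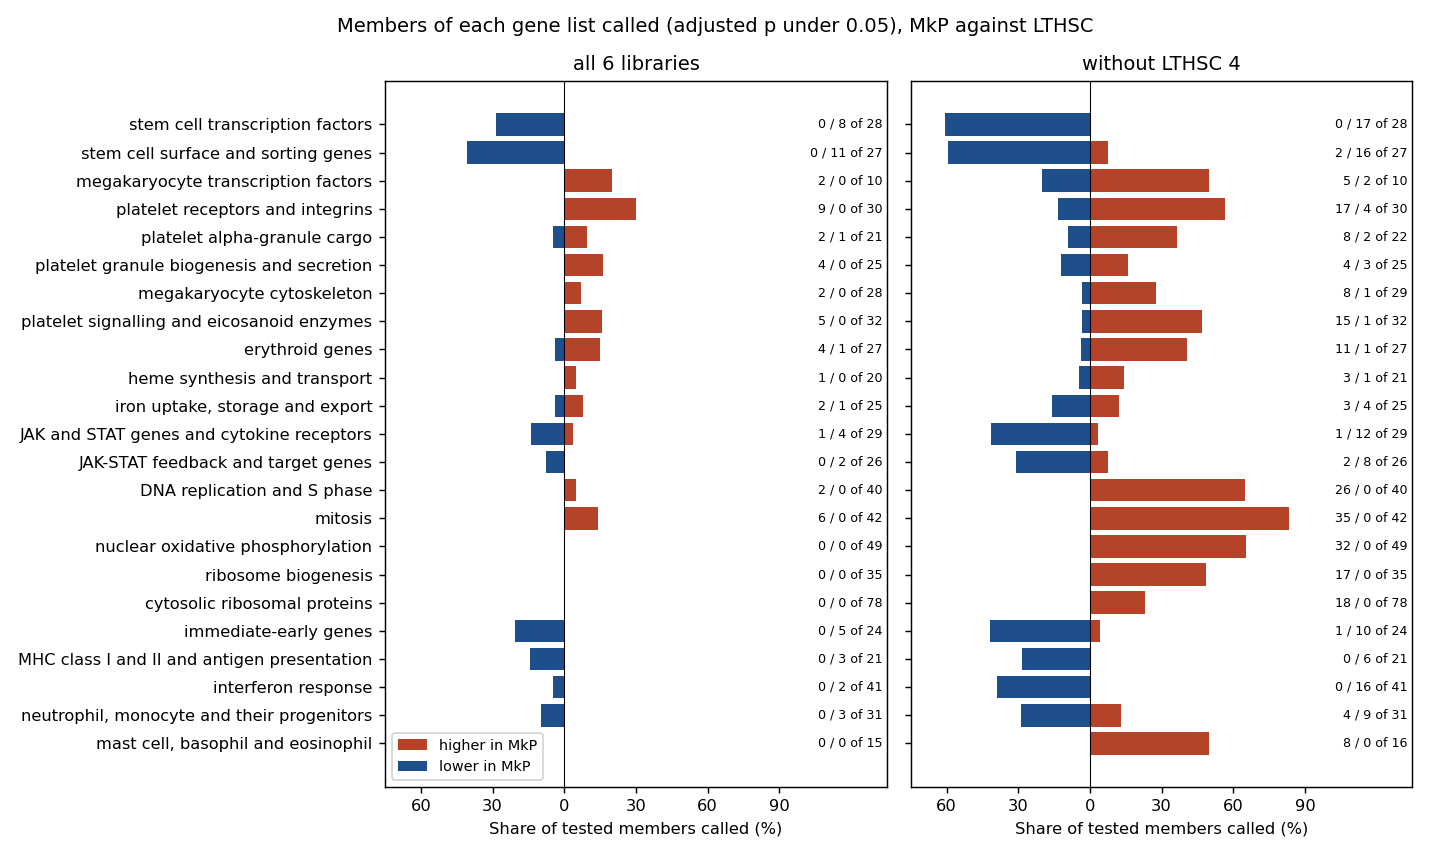
Share of tested members of 23 gene lists called higher (red, right) or lower (blue, left) in MkP, with all 6 libraries and without LTHSC 4; the text in each row gives higher / lower of tested. Platelet receptors show 9 higher of 30, and the list of stem cell surface and sorting genes 11 lower of 27, with all 6 libraries. Mitosis shows 6 higher of 42 with all 6 libraries and 35 without LTHSC 4. Over all genes 0.931% were higher and 3.15% lower, and 9.1% and 11.2% without LTHSC 4.

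Of 29 tested JAK, STAT and cytokine receptor genes 1 was higher and 4 lower, against 0.931% and 3.15% over all genes, and 1 was higher and 12 lower without LTHSC 4, against 9.1% and 11.2%. Lower calls outnumbered higher ones over all genes too, at 423 of 548 with all 6 libraries. The X-linked Il2rg, the common gamma chain of several interleukin receptors, fell from 702, 1051 and 936 CPM in LTHSC 2, 4 and 11 to 88.6, 59.8 and 97.9 CPM in MkP 2, 4 and 5 (log2 fold change -3.45, SE 0.34, adjusted p = 0.00367; -3.30, adjusted p = 0.000508 without LTHSC 4). The receptors of G-CSF (Csf3r), interferon gamma (Ifngr2) and interleukin 11 (Il11ra1) fell by 2.84, 2.53 and 1.12 on the log2 scale (adjusted p = 0.0161, 0.0172 and 0.0484). The erythropoietin receptor Epor was the higher one, rising from 21.9, 19.2 and 35.5 CPM to 74.9, 70.8 and 65.4 CPM (log2 fold change 1.46, SE 0.31, adjusted p = 0.0428; 1.31, adjusted p = 0.0128 without LTHSC 4). The downstream factors Stat5a and Stat5b overlapped between the groups, at 140 to 166 and 110 to 130 CPM in MkP (adjusted p = 0.848 and 0.787, and 0.771 and 0.926 without LTHSC 4).

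Of 26 feedback and target genes of the pathway 0 were higher and 2 lower, against 0.931% and 3.15% over all genes. Without LTHSC 4, 2 were higher and 8 lower, against 9.1% and 11.2%. Sh2b3 (LNK), an adaptor that restrains Jak2, fell from 66.0, 48.9 and 40.3 CPM to 20.7, 21.0 and 20.8 CPM (log2 fold change -1.31, SE 0.29, adjusted p = 0.0458; -1.33, adjusted p = 0.0119 without LTHSC 4). The repressor Bcl6 fell from 27.2, 49.7 and 38.6 CPM to 7.52, 7.93 and 9.22 CPM (log2 fold change -2.23, SE 0.34, adjusted p = 0.014; -1.99, adjusted p = 0.00491 without LTHSC 4). The MkP values of both genes were nearly equal to each other. The STAT5-induced inhibitors Socs2 and Cish were at 45, 13 and 32.9 and at 77.2, 12.1 and 93.3 CPM in LTHSC, and at 14.2, 11.1 and 7.64 and at 23.7, 22 and 8.78 CPM in MkP. LTHSC 4 lay among the MkP values for both, and they were called only without it (log2 fold change -1.81 and -2.21, adjusted p = 0.0105 and 0.011; adjusted p = 0.16 and 0.243 with all 6).

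Red cell and iron genes were mixed. Counts here and in the next paragraph are read against 0.931% higher and 3.15% lower over all genes, and 9.1% and 11.2% without LTHSC 4. Of 27 tested erythroid genes 4 were higher and 1 lower, and 11 were higher and 1 lower without LTHSC 4. The higher ones were Epor, the lipid exporter Mfsd2b, the water channel Aqp1 and the transferrin receptor Tfrc. Mfsd2b rose from 67.8, 61.9 and 75.9 CPM to 778, 864 and 631 CPM (log2 fold change 3.47, SE 0.29, adjusted p = 0.00292; 3.42, adjusted p = 0.000291 without LTHSC 4). Tfrc (chromosome 16, 32608896 to 32632794), which imports transferrin-bound iron, rose from 35.6, 51.0 and 35.4 CPM to 155, 165 and 174 CPM (log2 fold change 2.02, SE 0.27, adjusted p = 0.00853; 2.23, adjusted p = 0.00042 without LTHSC 4). Car2, a carbonic anhydrase, fell from 2366, 2594 and 2889 CPM to 1249, 923 and 993 CPM (log2 fold change -1.31, SE 0.28, adjusted p = 0.0408; -1.30, adjusted p = 0.0034 without LTHSC 4). Klf1, the master factor of red cells, was at 32.0, 118 and 22.3 CPM in LTHSC and at 86.1, 59.1 and 74.6 CPM in MkP, with LTHSC 4 highest, and was called only without it (log2 fold change 1.46, adjusted p = 0.00927).

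None of the 6 tested globin entries was called in either fit (0 of 6 by edgeR). They are not 6 separate measurements. Hbb-bs and Hbb-b1 both had 8567 counts in LTHSC and 2934 in MkP, and Hbb-bt and Hbb-b2 both had 6360 and 1740. Hba-a1, an alpha globin, was at 268, 611 and 678 CPM in LTHSC and at 344, 119 and 63.4 CPM in MkP, and the groups overlapped (log2 fold change -1.56, SE 0.64, adjusted p = 0.245; -1.41, adjusted p = 0.183 without LTHSC 4). Hba-a1 has a near-identical copy, Hba-a2, with nearly the same LTHSC counts (39838 and 39507), and gene counts may split or share reads between them. Of 25 iron uptake, storage and export genes 2 were higher and 1 lower, and 3 were higher and 4 lower without LTHSC 4. Besides Tfrc, the ferrireductase Steap3, which reduces iron freed from transferrin, rose from 12.4, 26.3 and 20.7 CPM to 64.1, 66.1 and 53.5 CPM (log2 fold change 1.63, SE 0.34, adjusted p = 0.0397; 1.90, adjusted p = 0.00557 without LTHSC 4). Transferrin itself (Trf), the iron carrier of plasma, fell from 138, 457 and 213 CPM to 68.0, 51.2 and 41.0 CPM (log2 fold change -2.34, SE 0.47, adjusted p = 0.0381; -1.70, adjusted p = 0.00698 without LTHSC 4). Of 20 tested heme genes 1 was higher and 0 were lower, and 3 of 21 were higher and 1 lower without LTHSC 4. The one called with all 6 libraries was the porphyrin transporter Abcb6 (log2 fold change 1.97, SE 0.35, adjusted p = 0.0257; 2.04, adjusted p = 0.00955 without LTHSC 4). Of 29 iron-sulfur cluster genes 0 were called with all 6 libraries and 4, all higher, without LTHSC 4, against 9.1% higher over all genes.

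The counts for cell division genes changed with LTHSC 4. Of 42 mitosis genes 6 were higher with all 6 libraries and 35 without LTHSC 4, with 0 lower in both; of 40 DNA replication genes the counts were 2 and 26 higher and 0 lower. The share of all genes called higher went from 0.931% to 9.1% between these fits. The summed mitosis level was 2859, 7186 and 3387 CPM in LTHSC 2, 4 and 11 and 7284, 6814 and 7350 CPM in MkP 2, 4 and 5, so that LTHSC 4 lay among the MkP libraries. The spindle motor Kif11 (chromosome 19, 37376382 to 37421863) rose from 60.5, 49.3 and 57.2 CPM to 196, 194 and 172 CPM with no such overlap (log2 fold change 1.75, SE 0.24, adjusted p = 0.00998; 1.69, adjusted p = 0.000712 without LTHSC 4). E2f8, an atypical E2F repressor linked to polyploid cycles, rose from 23.1, 28.7 and 28.6 CPM to 141, 145 and 123 CPM (log2 fold change 2.35, SE 0.25, adjusted p = 0.00478; 2.42, adjusted p = 0.000536 without LTHSC 4). The checkpoint kinase Bub1b, the spindle factor Tpx2, the cytokinesis protein Anln and the kinesin Kif20a rose by 1.22, 1.31, 1.55 and 1.24 on the log2 scale (adjusted p = 0.0341, 0.0322, 0.0318 and 0.0319). The cell cycle brake Rb1 also rose, from 13, 4.76 and 7.9 CPM to 42.3, 45.9 and 31.6 CPM (log2 fold change 2.22, SE 0.42, adjusted p = 0.0309; 1.95, adjusted p = 0.0076 without LTHSC 4).

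Counts for growth and energy lists changed likewise. They are read against 0.931% higher and 3.15% lower over all genes with all 6 libraries, and 9.1% and 11.2% without LTHSC 4. Of 49 nuclear respiratory chain genes 0 were called with all 6 libraries (edgeR) and 32, all higher in MkP, without LTHSC 4. Their summed level was 26684 CPM in LTHSC 4, against 10482 and 10880 in LTHSC 2 and 11 and 15028 to 16100 in MkP. For 35 ribosome biogenesis genes the counts were 0 and 17 higher, and for 78 ribosomal proteins 0 and 18 higher, with 0 lower in each. Summed ribosomal protein levels were 35981 CPM in LTHSC 4, 14583 and 15059 in LTHSC 2 and 11, and 16652 to 20731 in MkP. In glycolysis 0 of 21 were higher and 2 lower, the lactate dehydrogenase chain Ldhb and the aldolase Aldoc, and 2 of 22 were higher and 4 lower without LTHSC 4. Ldhb fell from 216, 190 and 210 CPM to 26.6, 22.8 and 20.6 CPM (log2 fold change -3.14, SE 0.26, adjusted p = 0.00292; -3.17, adjusted p = 0.000275 without LTHSC 4).

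**Figure D4:**
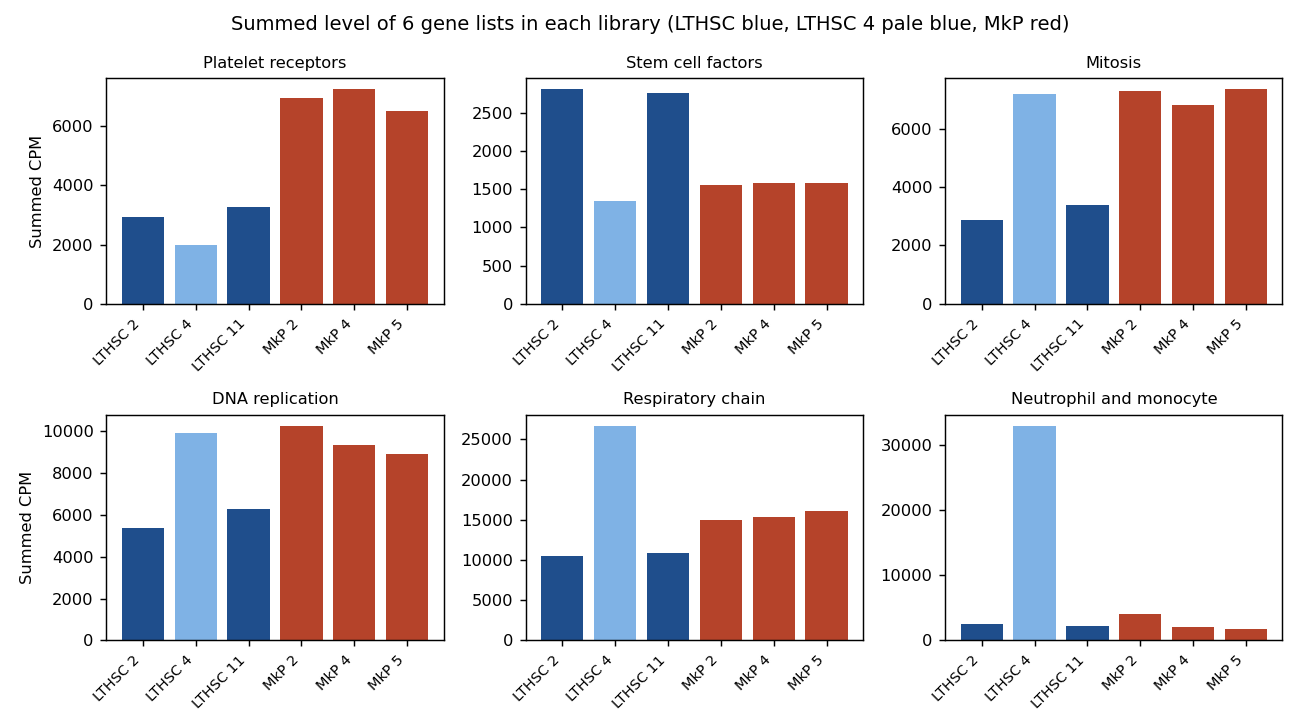
Summed CPM of 6 gene lists in each of the 6 libraries, 1 bar per library (LTHSC blue, LTHSC 4 pale blue, MkP red). LTHSC 4 reaches 7186 CPM for mitosis and 26684 CPM for the respiratory chain, away from LTHSC 2 and 11, and 32947 CPM for neutrophil and monocyte genes.

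Immune and stress lists are read against 3.15% lower and 0.931% higher over all genes with all 6 libraries, and 11.2% and 9.1% without LTHSC 4. Of 24 immediate-early genes, the quickly induced regulators that also respond to cell handling, 5 were lower and 0 higher, and 10 were lower and 1 higher without LTHSC 4. Egr1 was at 419, 185 and 95.8 CPM in LTHSC 2, 4 and 11 and at 28.7, 42.7 and 24.1 CPM in MkP (log2 fold change -2.87, SE 0.55, adjusted p = 0.0322; -2.99, adjusted p = 0.0119 without LTHSC 4). Junb and the mRNA decay factor Zfp36 fell by 1.70 and 1.90 (adjusted p = 0.0242 and 0.0389). The summed level of this list was 4161 CPM in LTHSC 2 and 1626 in LTHSC 11, a wider gap than that between LTHSC 11 and the MkP libraries (1211 to 1593). For the unfolded protein and integrated stress response the counts were 1 lower and 0 higher of 28, and 3 lower and 9 higher without LTHSC 4. Of 21 antigen presentation genes 3 were lower and 0 higher, and 6 were lower and 0 higher without LTHSC 4. Cd74, the class II invariant chain, was at 1157, 142 and 637 CPM in LTHSC and at 16.4, 37.9 and 14.9 CPM in MkP (log2 fold change -4.81, SE 0.81, adjusted p = 0.0217; -5.26, adjusted p = 0.000943 without LTHSC 4). The class II gene H2-Ab1 fell by 2.44 on the log2 scale (adjusted p = 0.0287). Of 41 interferon response genes 2 were lower and 0 higher with all 6 libraries, near the share over all genes, and 16 were lower and 0 higher without LTHSC 4. The interferon-induced Rtp4 fell from 114, 126 and 128 CPM to 21.1, 24.9 and 24.9 CPM (log2 fold change -2.37, SE 0.25, adjusted p = 0.00403; -2.34, adjusted p = 0.000508 without LTHSC 4).

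Some genes of other blood lineages changed sign with the choice of libraries. List counts here are read against 0.931% higher and 3.15% lower over all genes, and 9.1% and 11.2% without LTHSC 4. Of 31 tested neutrophil and monocyte genes 0 were higher and 3 lower, and 4 were higher and 9 lower without LTHSC 4. The 3, lower in both fits, were the receptor Csf3r, the integrin chain Itgam and the protease Ctss (log2 fold change -2.84, -3.81 and -3.74 with all 6 libraries). With all 6 libraries Mpo had a log2 fold change of -2.17 (SE 1.65, adjusted p = 0.574), and without LTHSC 4 it was higher in MkP (3.42, SE 0.49, adjusted p = 0.00518). Ctsg and Elane likewise went from -2.96 and -3.49, not called, to 3.23 and 2.05 (adjusted p = 0.00573 and 0.0259). The mast cell and basophil proteases Cpa3 and Mcpt8 went from -0.38 and -2.49 to 2.37 and 3.78 (adjusted p = 0.0156 and 0.0461). Of 16 mast cell, basophil and eosinophil genes tested without LTHSC 4, 8 were higher and 0 lower. Their summed level was 581 to 835 CPM in MkP, 230 and 326 CPM in LTHSC 11 and 2, and 2074 CPM in LTHSC 4. Of 16 macrophage genes 0 were higher and 2 lower, and 1 was higher and 3 lower without LTHSC 4; of 13 lymphoid genes 0 were higher and 2 lower, and 1 was higher and 2 lower without it. In bulk RNA a few contaminating cells and a low level in every cell cannot be told apart. The lymphoid gene Ltb, a cytokine of the tumour necrosis factor family, fell from 361, 106 and 336 CPM to 5.36, 5.62 and 4.72 CPM (log2 fold change -5.68, SE 0.54, adjusted p = 0.00358; -6.04, adjusted p = 1.61e-05 without LTHSC 4).

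Among genes called in both fits whose higher population averaged 10 CPM or more, 111 higher and 345 lower genes met the rule for naming. The largest rises were Slc14a2, a urea transporter, at 16.8 to 24.4 CPM in MkP and 0 to 0.411 CPM in LTHSC, and the interleukin receptor chain Il20ra, at 11.4 to 18.2 and 0 to 0.561 CPM. Mrvi1 (IRAG), through which cyclic GMP kinase blocks calcium release in platelets, stood at 53.9, 55.2 and 38.1 CPM in MkP and at 1.38, 2.38 and 0.0329 CPM in LTHSC 2, 4 and 11 (log2 fold change 5.30, SE 1.01, adjusted p = 0.0309; 6.17, adjusted p = 0.00668 without LTHSC 4). The potassium channel Kcnj5 (chromosome 9, 32314706 to 32344380) rose from 6.54, 1.47 and 3.06 CPM to 132, 148 and 137 CPM (log2 fold change 5.23, SE 0.56, adjusted p = 0.00495; 4.88, adjusted p = 0.000499 without LTHSC 4). The phosphodiesterase Pde10a, the adaptor Grap2 (GADS) and acetylcholinesterase (Ache), a classical mouse megakaryocyte enzyme, rose by 4.74, 4.50 and 3.96 on the log2 scale (adjusted p = 0.0124, 0.0446 and 0.01).

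Of the largest falls, Gimap7, a GTPase of lymphoid and stem cells, was at 7.7, 15.7 and 7.8 CPM in LTHSC and had no count in MkP. Against 3 counts over the MkP group it was at least 254-fold lower (adjusted p = 0.00705). Vnn1, a pantetheinase, and the ephrin ligand Efna1 were at 21.9, 1.11 and 17.4 and at 22, 0.557 and 44.7 CPM in LTHSC, with 1 and 3 counts in all of MkP, and LTHSC 4 was lowest for both. Sgsm1, Epb41l3, Olfm5, Zfp831, the somatostatin receptor Sstr2 and the prostaglandin synthase Ptges fell, with log2 fold changes from -6.75 for Ptges to -7.08 for Sgsm1, as their levels went from means of 10.8 to 15.0 CPM to under 0.13 CPM. LTHSC 4 was the highest library for Gimap7 and for Sstr2, which stood at 24 CPM there.

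The change from LTHSC to MkP was next compared with that of the other Jak2 lines, in a fit over 18 libraries, and levels given for it are CPM with TMM factors over those 18. Against the VF line 1 of 14659 genes was called (0.00682%; 501 at an unadjusted p under 0.05; limma voom called 0 and DESeq2 42). This was Lrg1, a secreted glycoprotein of inflammation, which fell in the E12 line from 19.7, 16.3 and 17.0 CPM in LTHSC 2, 4 and 11 to 1.43, 0.684 and 0.439 CPM in MkP. In the VF line Lrg1 was at 1.3 to 2.31 CPM in LTHSC and 2.22 to 2.37 CPM in MkP. The difference of the changes was -4.67 (SE 0.68, adjusted p = 0.0348; 0.0733 without LTHSC 4, where 0 genes were called and 376 had an unadjusted p under 0.05).

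Against the KI line 1469 genes were called (10%), 88 with a higher (0.6%) and 1381 with a lower change (9.42%) in the E12 line. Without LTHSC 4 the count was 0 by edgeR, with 3202 genes at an unadjusted p under 0.05. It was also 0 when LTHSC KI 2, LTHSC KI 3, MkP KI 5, MkP KI 6, MkP E12 2 or MkP E12 4 was left out, 766 without MkP E12 5, 896 without LTHSC KI 1, 1626 without LTHSC E12 11, 2190 without LTHSC E12 2 and 5286 without MkP KI 4. With all 18 libraries limma voom called 1 gene and DESeq2 2486. The KI MkP libraries differed among themselves: Pf4 was at 939 CPM in MkP KI 4, 5834 in MkP KI 5 and 14790 in MkP KI 6. The change of Pf4 was 5.03 (SE 0.72) in the E12 line, 8.51 (SE 0.84) in KI and 4.39 (SE 0.70) in VF on the log2 scale, and E12 differed from KI by -3.48 (SE 0.89, adjusted p = 0.0218; 0.062 without LTHSC 4). Ly6a changed by -6.22 (SE 0.61) in E12, -2.54 (SE 0.51) in KI and -5.88 (SE 0.59) in VF, with MkP KI 5 and 6 at 35.7 and 44.8 CPM and every other MkP library under 8 CPM. Itga2b changed by 3.01, 3.24 and 2.69 and Hlf by -3.31, -3 and -3.01 in E12, KI and VF, with differences from KI of -0.23 (SE 0.48, adjusted p = 0.795) and -0.31 (SE 0.59, adjusted p = 0.765). A p that misses the threshold does not show that the lines are alike.

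**Figure D5:**
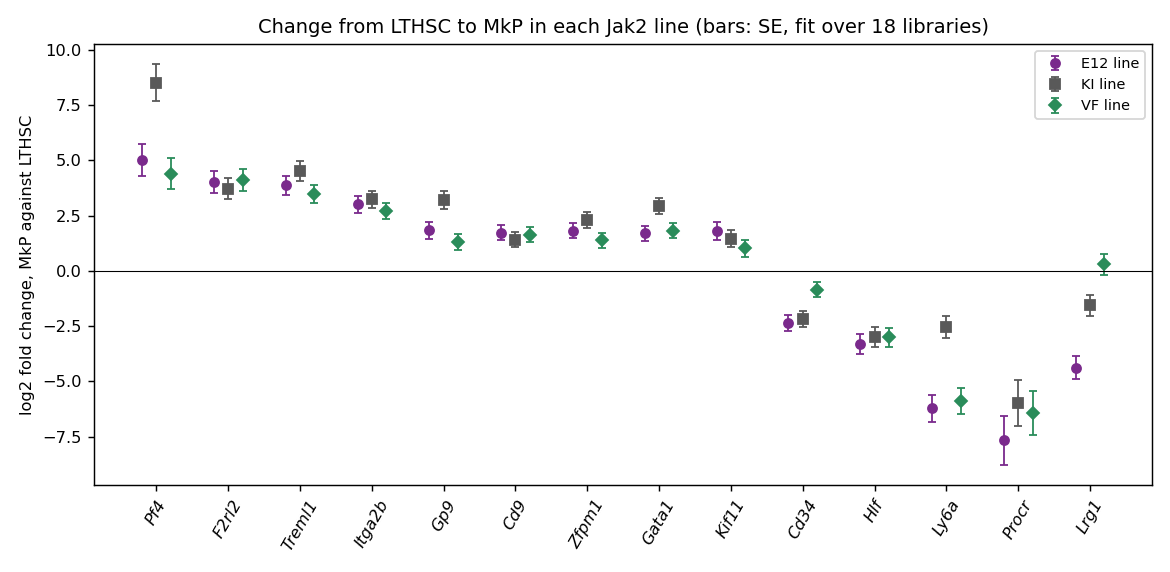
Log2 fold change of MkP against LTHSC for 14 genes in the E12, KI and VF lines, from the fit over 18 libraries; points are estimates and bars are SE. Pf4 stands at 5.03, 8.51 and 4.39 and Lrg1 at -4.38, -1.56 and 0.29 in E12, KI and VF.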

How the data were processed

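Bone marrow populations were sorted by flow cytometry, RNA was extracted with a PicoPure kit and libraries were made by Smart-seq2, per the labels' protocols. The authors deposited raw counts per Entrez gene; the submitters' processing notes name STAR 2.7.0c, featureCounts, Subread 1.6.4 and mm10. Annotation, strand setting and multiply mapped reads are not given in the sources used here. Without molecular identifiers, a count may include copies of 1 molecule. The table held 24454 genes, 24374 of them matched by ID to RefSeq GRCm38.p6; 16 rows without a symbol (at most 0.0132% of a library) were left out. At 20751902 counts or more counting error is small for genes with many counts, where replicate spread sets the precision. It is not small for genes near 0 in a group, such as Vnn1 with 1 count and Epb41l3 with 8 counts over MkP. All 15 pairs of the 6 libraries differed by more than sampling noise (chi-square over its degrees of freedom at least 26.51).

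The quasi-likelihood test of edgeR 4.0.16 (R 4.3.3) was run on the counts, with filterByExpr, TMM and robust dispersions; a Benjamini-Hochberg adjusted p under 0.05 over all genes tested was a call; SE is the log2 fold change over the square root of F. Differences between lines were fitted over 18 libraries. Alternatives were RLE scaling, no count filter, DESeq2 1.42.0, limma 3.58.1 (voom), a replicate block, larger fits and each library left out. In data simulated from these counts 67, 67 and 66 genes were changed 2-, 4- and 8-fold, and all others were left unchanged. With all 6 libraries 1.49%, 32.8% and 71.2% of them were found (13131 genes), and 26.9%, 61.2% and 72.7% without LTHSC 4 (13536 genes). Noise was drawn separately for each gene, with 1 spread for both populations. The real data hold more called genes and a library that differs in many genes together, so these shares need not hold for them.

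The comparison, the 36 gene lists and the genes named were chosen with earlier results of these data known. Named genes are the 10 largest changes each way with the same call in both fits and no overlap. They averaged 10 CPM or more where higher, and predicted genes, pseudogenes and sex-linked genes were left out. A fixed panel of lineage and pathway genes was added, with up to 5 called members per list and direction. Also named were the 5 largest called differences from KI each way at 10 CPM or more, and the 5 genes of smallest p against VF. Dntt, Slc4a1, Il7r, Cd48 and Ddx3y are named as markers. Flt3 and Cd27 are named as members of their list and are not counted among the 93 called named genes. Genes at 0 in a group are given as a bound against 3 counts over the group. Some genes that the rule names are not reported here.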

Additional observations from a re-analysis of the deposited data

Results flagged for a closer look

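By a test of the difference itself, the change from LTHSC to MkP differed between the E12 and KI lines for 25 named genes. For 1 of them, Lrg1, it also differed from the VF line. The naming rule had taken in the 5 largest called differences from KI each way and the 5 genes of smallest p against VF. The count of 25 is therefore partly fixed by that choice, and 10% of all tested genes were called against KI. Against the KI line the difference on the log2 scale (E12 minus KI) was 8.14 for Trib1, 7.66 for Palld, 3.87 for Gnaz, 3.68 for Nr4a1, 3.59 for Pstpip2, 2.15 for Egr1 and 2.01 for Zfp36. It was -10.28 for Ly86, -9.31 for Prg3, -8.95 for Mcpt8, -8.14 for Ctsg, -7.72 for Elane, -6.64 for Ly6c2 and -4.52 for Cpa3, genes of neutrophils, monocytes, mast cells, basophils and eosinophils. It was also negative for Ccdc180 (-9.28), Lim2 (-8.39), Gimap7 (-7.29), Kcnj5 (-5.20), Ifitm1 (-4.11), Ly6a (-3.69), Pf4 (-3.48), Klf1 (-3.25), Lrg1 (-2.82), Hoxa7 (-2.05) and Tuba8 (-1.75). Against the VF line it was -4.67 for Lrg1. Without LTHSC E12 4 the adjusted p (edgeR) was between 0.062 and 0.321 for the 25 and 0.0733 for Lrg1 against VF, so 0 were called.

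Trib1 and Palld had no count in any KI MkP library and Gimap7 none in any E12 MkP library, so the fitted differences of these genes are no bound. The levels that follow are CPM scaled with TMM factors over the 18 libraries of this fit. Ly86, Prg3 and Mcpt8 were at 34.6, 24.4 and 154 CPM in LTHSC E12 4 and at most 1.23 CPM in the other 2 E12 LTHSC libraries. Ccdc180 and Lim2 were at 129 to 235 and 37.7 to 48.9 CPM in MkP KI 5 and 6, against 6.78 and 3.46 CPM in MkP KI 4. Nr4a1, an immediate-early gene, was at 206 CPM in LTHSC KI 1, 56.5 and 57.1 CPM in LTHSC KI 2 and 3 and 5.56 to 12.3 CPM in the E12 LTHSC libraries. Gnaz, a platelet G protein subunit, was at 20.7 to 29.7 CPM in MkP of the E12 line and 2.2 to 12.8 CPM in that of KI. The part of single libraries and of cell handling in these differences was not tested. Groups of 3 libraries were too small for a test of single outlying libraries.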

How the results depend on the processing

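The count of 548 called genes (MkP against LTHSC) became 1533 with DESeq2, 1183 and 1030 in fits over 18 and 24 libraries, and 36 to 2814 when 1 library was left out. It was 532 with RLE scaling, 598 without the count filter and 500 with voom, where 32% of calls were higher against 22.8%. With a replicate block it was 390, of which 279 were among the 548; same-numbered libraries did not deviate together (correlations -0.09 for number 2 and -0.1 for number 4), so the numbers were not taken to pair them. With 1 library left out the log2 fold change ran from -2.78 to 3.42 for Mpo, -4.06 to 2.05 for Elane, -0.925 to 2.37 for Cpa3, -3.48 to 3.78 for Mcpt8 and -3.53 to 3.23 for Ctsg; each highest value is that without LTHSC 4, the only one above 0 among these. With all 6 libraries voom also gave 0.861 for Mpo, 1.19 for Cpa3, 1.6 for Mcpt8 and 0.556 for Ctsg, and the replicate block 0.739 for Cpa3 and 0.312 for Mcpt8, none called. Of 93 called named genes 52 kept their call under every alternative with all 6 libraries. The difference from KI (1469 genes) became 2486 with DESeq2, 1 with voom and 0 to 5286 with 1 library left out; no paired analysis was possible there because KI LTHSC and MkP share no replicate numbers. The difference from VF (1 gene) became 42 with DESeq2, 0 with voom, 0 with a replicate block and 0 to 11 with 1 library left out. The causes were not tested. Of 67 simulated 2-fold changes 1 was found with all 6 libraries (1.49%) and 18 without LTHSC 4 (26.9%). Most genes were unchanged in that simulation, so these shares need not hold for the real data.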

Other observations

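The genes in this paragraph were singled out after their values were seen. Of 8 tested Gimap genes, GTPases known from lymphocytes, 5 were lower in MkP of the E12 line and 0 higher, against 3.15% lower over all genes; without LTHSC 4 the counts were 7 and 0, against 11.2% lower. Gimap6 was at 689, 460 and 919 CPM in LTHSC 2, 4 and 11 and at 96.0, 93.3 and 101 CPM in MkP 2, 4 and 5 (log2 fold change -2.83, SE 0.33, edgeR adjusted p = 0.00577; -3.04, adjusted p = 0.000275 without LTHSC 4). Gimap1 was at 369, 353 and 515 CPM in LTHSC and at 104, 101 and 97.3 CPM in MkP (log2 fold change -2.03, SE 0.27, adjusted p = 0.00888; -2.12, adjusted p = 0.000593 without LTHSC 4). For both genes the MkP libraries lay close together, below all LTHSC libraries. Of 20 tested glutathione transferases, which detoxify reactive compounds, 4 were lower and 0 higher, against 3.15% and 0.931% over all genes. Without LTHSC 4, 7 were lower and 2 higher, against 11.2% and 9.1%. Gstm1 was at 289, 721 and 411 CPM in LTHSC and at 69.3, 38.2 and 41.4 CPM in MkP (log2 fold change -3.25, SE 0.44, adjusted p = 0.00998; -2.80, adjusted p = 0.0016 without LTHSC 4).

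Some genes without a place in the lists rose as clearly as platelet genes. The urea transporter Slc14a1, known from red cells and kidney, was at 143, 123 and 117 CPM in LTHSC and at 1985, 1686 and 1680 CPM in MkP (log2 fold change 3.80, SE 0.29, adjusted p = 0.00292; 3.80, adjusted p = 0.000263 without LTHSC 4). Alox5, the lipoxygenase that starts leukotriene synthesis, rose from 8.37, 8.96 and 6.81 CPM to 64.0, 69.3 and 67.5 CPM (log2 fold change 3.06, SE 0.28, adjusted p = 0.00324; 3.16, adjusted p = 0.00042 without LTHSC 4). The cannabinoid receptor Cnr2 rose from 12.0, 5.16 and 2.3 CPM to 87.6, 88.5 and 85.1 CPM (log2 fold change 3.75, SE 0.58, adjusted p = 0.0156; 3.63, adjusted p = 0.00973 without LTHSC 4). In each of the 3 genes every MkP library lay above every LTHSC library, LTHSC 4 included.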
